A study of Mus musculus with 9 samples.

Results

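The genes described here encode angiopoietin-like proteins, lipases and an apolipoprotein that together set how triglyceride is released from lipoproteins and from stored fat. Angptl4, Angptl6, Angptl8, Lpl, Lipc, Apoa5 and Pnpla2 make up the group of 7, and its members are the probe sets annotated to 1 of these symbols alone. Of the 18193 genes with such a probe set, 6 are members, with 9 probe sets between them. No probe set carries the symbol Lipc in the annotation used here, so that gene was not analysed here. Of the 9 probe sets, 7 passed a filter on low signal, at least 1 for each of the 6 genes. The genes were chosen by results already known from the signal on these arrays, among them the differences of Angptl4 and Angptl8 from the corn oil livers. Their differences are therefore given as descriptions, with 95% intervals and without p-values.

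Liver RNA came from female MRL +/+ mice, an autoimmune-prone strain, with 3 mice in each group and 1 array per mouse. A first group received dichloroacetyl chloride (DCAC), an acyl chloride, and a second received dichloroacetic anhydride (DCAA), the anhydride of the same acid. Each compound was injected into the peritoneum at 0.2 mmol/kg in 100 µl of corn oil over 6 weeks. The third group received corn oil alone, although its labels read untreated. All mice were 11 weeks old, and livers were collected 24 h after the last injection. The compounds were compared with corn oil for their effect on the liver, and with each other.

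Lipoprotein lipase, the product of Lpl, sits on capillary walls and cleaves the triglyceride of circulating lipoproteins. Angptl4 protein, which is made in liver and fat and is induced in fasting, inactivates that enzyme in fat. Angptl8 protein, made in liver and fat after feeding and raised by insulin, takes part in inhibiting the enzyme in muscle and heart. Apoa5 protein promotes lipoprotein lipase activity, Lipc encodes hepatic lipase, and Pnpla2 encodes adipose triglyceride lipase, which starts the breakdown of stored triglyceride inside cells.

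The library labelled control 2 stood apart and is shown separately. Its summed signal over 11 hepatocyte markers was 26712, and it was 398216 to 557140 on the other 8 arrays. Its summed signal over 10 kidney markers was 131304, and on the others it was 1773 to 2683. The differences below therefore rest on 8 arrays, with 2 corn oil livers, called corn oil 1 and corn oil 3. The arrays also differed in RNA quality. Their 3'/5' ratio, read from the control probe sets for pyruvate carboxylase and higher where RNA or its labelling was less complete, was 12.8 on DCAC 3 and 6.43 to 10.9 on the DCAA arrays, against 2.85 and 3.99 on DCAC 1 and 2 and 3.32 and 3.94 on the corn oil arrays. Arrays have no read depth, and the number of mice limits the precision. For a typical probe set the 95% interval reached 1.56-fold either way for a compound against corn oil.

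Angptl4 was higher with both compounds than with corn oil. Its signal was 1304, 2298.5 and 1648.5 on DCAC 1, 2 and 3, and 2779, 3209 and 3015 on DCAA 1, 2 and 3, against 1045 and 1089 in the corn oil livers. The groups formed 3 separate steps with no overlap, with DCAA highest, DCAC between and corn oil lowest. Mean signal was 1750 ± 505 with DCAC (SD, n = 3) and 3001 ± 215 with DCAA (SD, n = 3), against 1067 ± 31.4 with corn oil (SD, n = 2). The DCAC mice spread more widely than the DCAA mice, and DCAC 1 lay closest to corn oil. In log2 units Angptl4 stood 0.67 above corn oil with DCAC (SE 0.21, 95% interval 0.21 to 1.14) and 1.49 above it with DCAA (SE 0.21, interval 1.03 to 1.95), which are 1.60-fold and 2.81-fold. DCAC minus DCAA was -0.81 (interval -1.23 to -0.40), so the chloride stood below the anhydride at the same molar dose. That dose was equal in moles of compound, and not in moles of dichloroacetyl groups. The intervals against corn oil stayed above 0 in all 21 alternative settings. The interval of the difference between the compounds stayed below 0 in 20 of 21, and included 0 with all 9 arrays.

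Angptl4 with DCAA was the 1 member probe set called, where a call means a limma adjusted p under 0.05 over all 24531 probe sets, of which 0.0815% were called with DCAA. The Angptl4 call held in 12 of 21 alternatives. It was lost when corn oil 1, corn oil 3, DCAA 2 or DCAA 3 was left out. The log2 difference stayed between 1.44 and 1.54 over all fits that left out 1 array, with the call kept or lost. A second Angptl4 probe set read 54.7 or less on every array and failed the filter, so it gives no second measurement. All 3 DCAA arrays have high 3'/5' ratios and both corn oil arrays low ones. In a fit blocked by ratio class the Angptl4 difference was 1.56 with DCAA (interval 0.76 to 2.36), and it was no longer called. That fit takes its correction from DCAC 3 alone.

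Because fat also makes Angptl4, markers of adipose tissue were read beside it. Of 7 such markers 5 had a probe set, and their summed signal was 544 to 1182 on the DCAC arrays and 1193 to 1687 on the DCAA arrays, against 881 and 958 on the corn oil arrays. Between 1 and 2 of the 5 lay above the array median on DCAC arrays and 2 to 4 on DCAA arrays, against 1 on each corn oil array. Adipoq, which encodes the fat hormone adiponectin, read 77.0, 122 and 105 on DCAC arrays and 273, 326 and 81.1 on DCAA arrays, against 61.6 and 46.2 on corn oil arrays. Cidec, which encodes a lipid droplet protein, read 134.5, 46.9 and 145 on DCAC arrays and 195, 216 and 246 on DCAA arrays, against 89.8 and 85.5 on corn oil arrays. Both markers, and Fabp4, a fatty acid binding protein, were higher on all 3 DCAA arrays than on either corn oil array. Fabp4 read 718, 487.5 and 199 on DCAC arrays and 714.5, 852 and 694 on DCAA arrays, against 539 and 634 on corn oil arrays. Retn did not follow, and lay below both corn oil arrays on DCAA 1 and DCAA 3. It read 206, 182 and 87.7 on DCAC arrays and 87.2, 219 and 125 on DCAA arrays, against 164.1 and 163.9 on corn oil arrays. Lep read 46.1, 69.7 and 7.6 on DCAC arrays and 91.9, 74.4 and 47.5 on DCAA arrays, against 26.4 and 28.3 on corn oil arrays. Adipoq and Lep failed the filter on low signal. The part of adipose RNA in the Angptl4 result was not tested. In whole liver a change in the number of cells of a type and a change in RNA per cell cannot be told apart.

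**Figure D1:**
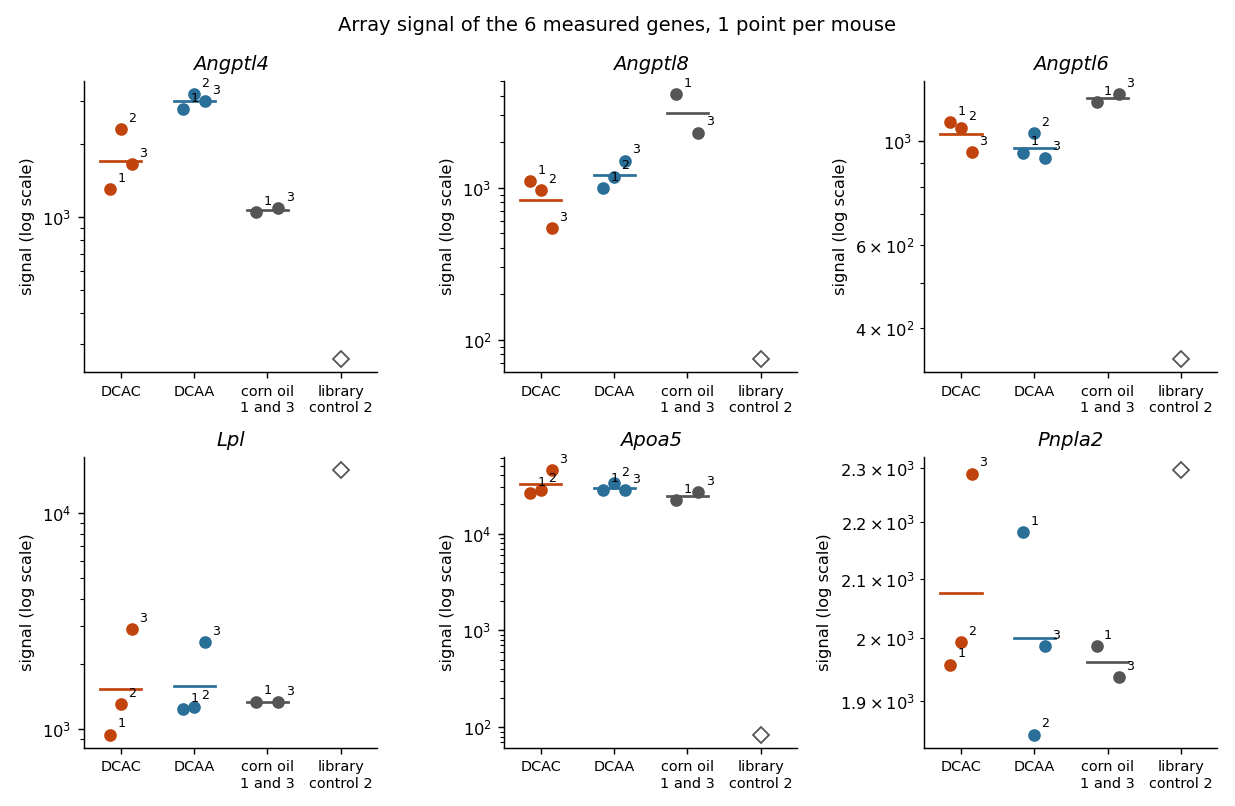
Signal of the brightest probe set of each of the 6 measured genes, on a logarithmic axis whose range differs between panels, with 1 numbered point per mouse and a bar at the mean of log2 signal. Angptl4 is highest on the 3 DCAA arrays (2779 to 3209), Angptl8 is highest in both corn oil livers (4111 and 2302), and the library labelled control 2 (open diamond) lies outside the range of the other arrays in every panel.

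Angptl8 moved the other way. The signal was 1104, 962 and 540 on DCAC 1, 2 and 3, and 995.5, 1182 and 1504 on DCAA 1, 2 and 3, against 4111 and 2302 in corn oil livers 1 and 3. All 6 treated livers lay below both corn oil livers, and the compound groups overlapped each other. Means were 869 ± 293 with DCAC (SD, n = 3) and 1227 ± 257 with DCAA (SD, n = 3), against 3206 ± 1279 with corn oil (SD, n = 2). The corn oil livers themselves lay far apart. Angptl8 stood at -1.89 in log2 with DCAC (SE 0.32, interval -2.58 to -1.20) and at -1.35 with DCAA (SE 0.32, interval -2.03 to -0.66), which put corn oil 3.70-fold above DCAC and 2.54-fold above DCAA. By size these were ranks 11 and 239 from the bottom among 24531 probe sets, and neither was called. DCAC minus DCAA was -0.54, with an interval of -1.16 to 0.07 that includes 0 and also differences of more than 2-fold. That interval excluded 0 in 2 of 21 alternatives, at -1.16 (-1.87 to -0.46) blocked by ratio class and at -0.75 (-1.41 to -0.08) without DCAC 1.

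The size of the Angptl8 difference depended on which corn oil liver was used. Without corn oil 1 it was -1.47 with DCAC and -0.93 with DCAA, and without corn oil 3 it was -2.31 and -1.76. Blocked by ratio class it was -1.58 with DCAC and -0.41 with DCAA, and the second interval then ran from -1.35 to 0.52. With all 9 arrays it was -0.10 with DCAC and 0.44 with DCAA, because control 2 read 74.7.

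Angptl8 lies inside the span of another gene, Dock6, which encodes a guanine nucleotide exchange factor. Dock6 read 244, 306 and 275 on DCAC arrays and 412, 125 and 265 on DCAA arrays, against 386 and 477.5 on corn oil arrays. The DCAC arrays thus lay below both corn oil arrays for Dock6 too, while DCAA 1 lay between them, and the log2 differences were -0.65 with DCAC and -0.84 with DCAA. The neighbours on either side, Kank2 and Rab3d, stood at -0.13 and 0.06 with DCAC and at -0.32 and 0.12 with DCAA. These neighbours were chosen after the Angptl8 values were seen.

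The 250 bases before the annotated start of Angptl8 are shown because, among the members, it had the difference from corn oil of greatest size, that with DCAC. They lie at chr9:21835260-21835509 on the + strand of GRCm38.p6, from RefSeq.
Angptl8: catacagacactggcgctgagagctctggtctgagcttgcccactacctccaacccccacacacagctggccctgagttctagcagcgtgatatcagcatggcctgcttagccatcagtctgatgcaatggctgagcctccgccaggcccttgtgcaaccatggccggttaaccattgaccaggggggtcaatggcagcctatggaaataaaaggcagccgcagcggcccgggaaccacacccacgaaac
A search on both strands covered 7 motifs, which were the TATA box (TATAAA), the CCAAT box (CCAAT), the E box (CACGTG), a sterol regulatory element (TCACNCCAC), the DR1 element bound by nuclear receptors, a FOX element (TGTTTAC) and a glucocorticoid receptor motif (TGTTCT). None of these motifs overlapped in the members' windows, and the Angptl8 window holds 0 matches. Among 32851 windows of the same length, over all genes that had a window, 12.4% hold the TATA box, 33.8% the CCAAT box, 6.02% the E box, 1.05% the sterol element, 0.0335% the DR1 element, 3.17% the FOX element and 16.1% the glucocorticoid receptor motif. The windows of Angptl6 and Pnpla2 also hold 0 matches. The sequences used held no window for Angptl4 or Lpl, so these members were not searched.

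Angptl6, which encodes a circulating member of the family linked to energy expenditure in mice, was slightly lower with both compounds. It read 1097, 1068 and 949 on DCAC arrays and 945, 1039 and 922 on DCAA arrays, against 1209 and 1258 on corn oil arrays. Each treated array lay below both corn oil arrays, by a small margin. The log2 differences were -0.25 with DCAC (interval -0.62 to 0.12) and -0.35 with DCAA (interval -0.72 to 0.02), and both intervals include 0. The DCAA interval excluded 0 in 2 of 21 alternatives, with a common median and without a filter. DCAC minus DCAA was 0.10 (interval -0.23 to 0.43).

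Lpl varied more between mice of the same group than between groups. Its brighter probe set read 943, 1300 and 2890 on DCAC 1, 2 and 3, and 1238, 1269 and 2535 on DCAA 1, 2 and 3, against 1338 and 1327 in the corn oil livers. DCAC 3 and DCAA 3 stood high and the other 6 arrays lay between 943 and 1338. Its dimmer probe set read 207, 298 and 506 on the DCAC arrays and 236, 210 and 503 on the DCAA arrays, against 284.5 and 430 on the corn oil arrays. The same 2 arrays were highest on it. They are also the 2 arrays with the highest pyruvate carboxylase 3'/5' ratio, 12.8 and 10.9, whose part in the Lpl signal was not tested.

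The log2 difference of Lpl was 0.19 with DCAC (interval -0.68 to 1.07) and 0.25 with DCAA (interval -0.63 to 1.13) by the brighter probe set, and -0.15 and -0.26 by the dimmer one. The 2 probe sets thus differed in sign, and every interval included 0. On the brighter one DCAC minus DCAA was -0.06, within an interval of -0.84 to 0.73. Without DCAC 3 the DCAC value became -0.27, and without DCAA 3 the DCAA value became -0.09. Blocked by ratio class the DCAA value was -1.13 (interval -2.19 to -0.08), and DCAC minus DCAA was 0.87 (interval 0.07 to 1.67), with its sign turned. On the library labelled control 2 the brighter probe set read 15822, which is 12.0 times the median of the other 8 arrays, and the dimmer one read 1608. Lpl is thus the member whose signal was raised most in that library.

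**Figure D2:**
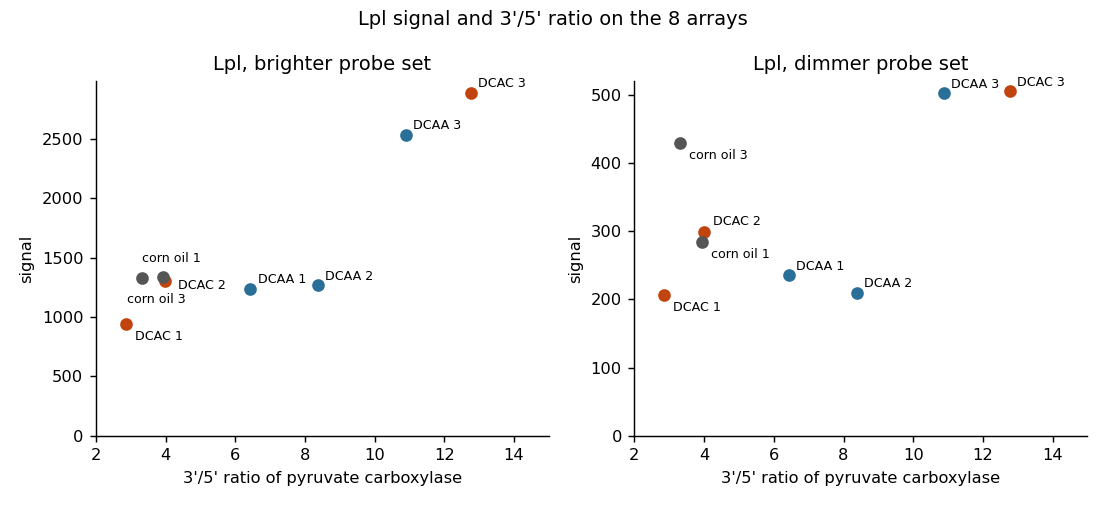
Signal of both Lpl probe sets (linear axis from 0) against the pyruvate carboxylase 3'/5' ratio on the 8 arrays, with 1 labelled point per mouse. DCAC 3 and DCAA 3 combine the highest ratios (12.8 and 10.9) with the highest Lpl signal on both probe sets, while DCAA 1 and DCAA 2, with ratios of 6.43 and 8.38, lie among the other arrays.

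Apoa5 was among the bright transcripts of these livers. In the signal as deposited it lay at or above the corn oil level with both compounds. It read 26274, 28457 and 45358 on DCAC arrays and 28498, 32937 and 28330 on DCAA arrays, against 22026 and 27032.5 on corn oil arrays. All DCAA arrays lay above both corn oil arrays, and DCAC 1 lay between the corn oil arrays. The log2 difference was 0.41 with DCAC (interval -0.05 to 0.87) and 0.29 with DCAA (interval -0.17 to 0.75), and DCAC minus DCAA was 0.12 (interval -0.30 to 0.53). The DCAC value rested in part on DCAC 3 and was 0.16 without it, while without DCAC 1 it was 0.56 (interval 0.09 to 1.03). Blocked by ratio class the DCAA value was -0.44, and DCAC minus DCAA was 0.60 (interval 0.22 to 0.99). With quantile normalization the DCAC value was 0.19 (interval -0.17 to 0.56) and the DCAA value was -0.0024 (interval -0.37 to 0.37). The Apoa5 differences thus depended on how the arrays were scaled. The summed signal of hepatocyte markers was also higher on DCAA arrays, at 512744 to 557140, against 415882 and 418140 on corn oil arrays. On DCAC arrays the sum was 398216 to 533176. Hnf4a, Cps1 and Tat did not lie above both corn oil arrays on every DCAA array, while the other markers did. Hnf4a read 12229, 11278 and 10120 on DCAA arrays, against 12290 and 10831 on corn oil arrays. Apoa5 read 84.1 on the library labelled control 2.

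The Apoa5 window is shown beside that of Angptl8 as the upstream sequence of a measured member that holds motif matches, which are in capitals. It covers the 250 bases before the first of 2 annotated starts, at chr9:46268358-46268607 on the + strand of GRCm38.p6, from RefSeq.
Apoa5: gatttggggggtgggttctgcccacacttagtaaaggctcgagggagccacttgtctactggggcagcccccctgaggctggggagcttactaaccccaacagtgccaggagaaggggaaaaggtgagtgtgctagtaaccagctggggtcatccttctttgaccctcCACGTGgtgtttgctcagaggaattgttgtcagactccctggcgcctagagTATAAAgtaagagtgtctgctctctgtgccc
The E box lies at positions -82 to -77 and the TATA box at -31 to -26, counted from the first base of the transcript. A match describes letters in the window and does not show binding.

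Pnpla2 differed least. Its bright probe set read 1957.5, 1994 and 2289.5 on DCAC arrays and 2182, 1848 and 1987 on DCAA arrays, against 1987.5 and 1937 on corn oil arrays. The 3 groups overlapped, and the log2 difference was 0.08 with DCAC (interval -0.26 to 0.42) and 0.03 with DCAA (interval -0.31 to 0.37). These intervals leave room for changes of up to 1.34-fold with DCAC and 1.29-fold with DCAA. DCAC minus DCAA was 0.05 (interval -0.25 to 0.36). The sign with DCAA turned when arrays were shifted to a common median, at -0.09. Its second probe set read 89.8 or less on every array and failed the filter.

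**Figure D3:**
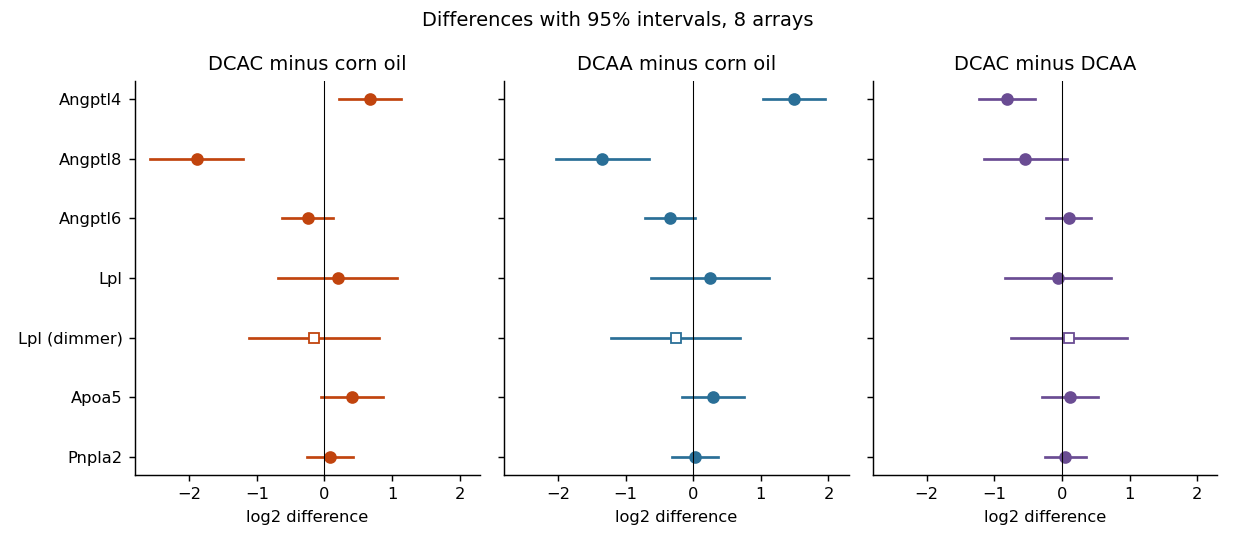
Log2 differences of the 7 member probe sets that passed the filter, with 95% intervals from the fit of 8 arrays, for DCAC minus corn oil, DCAA minus corn oil and DCAC minus DCAA (filled circles, brightest probe set of a gene; open square, dimmer probe set of Lpl). Angptl4 (0.67 and 1.49) and Angptl8 (-1.89 and -1.35) are the genes whose intervals exclude 0 against corn oil, and Angptl4 (-0.81) is the gene whose interval excludes 0 between the compounds.

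Counted over the 7 probe sets that passed the filter, 0 were called with DCAC, where 0.0326% of all probe sets were called, 1 with DCAA (0.0815%), and 0 between DCAC and DCAA, where 0.00408% were. The groups did not overlap for 3 of 7 with DCAC and 4 of 7 with DCAA, beside 23.7% and 31.8% of all probe sets. Between the compounds they did not overlap for 1 of 7, beside 13.9%. The members were chosen with these contrasts known, and both compounds are set against the same corn oil livers.

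Other genes of the pathway were taken from 6 lists, and 0 of their genes were called by limma against corn oil with either compound. Partners of lipoprotein lipase and other angiopoietin-like genes came closest to the members in function. Of 21 such genes 19 were measured, with a median log2 difference of 0.14 with DCAC and 0.23 with DCAA, where the medians over all 12293 genes were -0.0012 and 0.0001. At an unadjusted p under 0.05, 0 passed with DCAC and 5 were higher with DCAA. By that measure 350 of all 12293 genes were higher and 320 lower with DCAC, and 855 were higher and 762 lower with DCAA. These gene counts are the background for the lists that follow as well. Over all probe sets 2.47% were higher and 2.55% lower with DCAC, and 6.3% higher and 6.28% lower with DCAA. Apoc1, which encodes an apolipoprotein that inhibits lipoprotein lipase, averaged 43708 ± 9823 with DCAC (SD, n = 3) and 51238 ± 3829 with DCAA (SD, n = 3), against 36260 ± 1336 with corn oil (SD, n = 2). Its log2 difference was 0.25 with DCAC and 0.50 with DCAA (limma adjusted p = 0.978 and 0.289). Apoa4, a neighbour of Apoa5 in the same gene cluster, stood at 0.25 with DCAC and 0.44 with DCAA, and Apoe, the ligand of remnant receptors, at 0.21 and 0.38. The limma adjusted p with DCAA was 0.312 for Apoa4 and 0.349 for Apoe. The summed hepatocyte markers and the 3'/5' ratio were also higher on every DCAA array than on either corn oil array, and Alb, which encodes albumin, read 56478 to 65450 on DCAA arrays, against 43840 and 45064 on corn oil arrays. That sum is not separate from the apolipoproteins, since its markers include Apoa1, Apoa2 and Apob, and Apoa1 and Apob are also in this list. The part of the hepatocyte markers, of the 3'/5' ratio and of array scaling in the apolipoprotein differences was not tested.

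Among 24 measured of 26 other lipases and lipid droplet genes the medians were -0.02 with DCAC and 0.0034 with DCAA. At an unadjusted p under 0.05, 2 were lower and 0 higher with DCAC, and 4 were lower and 1 higher with DCAA. Pnpla3, a relative of Pnpla2 that is known to be induced by feeding, read 740, 612 and 541.5 on DCAC arrays and 1052, 607 and 710 on DCAA arrays, against 2988 and 1098 on corn oil arrays. As for Angptl8, all 6 treated livers lay below both corn oil livers, and corn oil 1 was well above corn oil 3. Its log2 difference was -1.53 with DCAC and -1.24 with DCAA (limma adjusted p = 0.45 and 0.212). Ces1d, a carboxylesterase that hydrolyses triglyceride in hepatocytes, stood at -0.49 and -1.08 (limma adjusted p = 0.967 and 0.0909). Plin5, a lipid droplet protein that binds Pnpla2 protein, stood at -0.31 and -0.76 (limma adjusted p = 0.967 and 0.163).

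Lipoprotein receptors and uptake genes, 11 measured of 14, had medians of 0.23 with DCAC and 0.13 with DCAA. At an unadjusted p under 0.05, 3 were higher with DCAC and 1 with DCAA, and 0 were lower with either. Lrp1, a receptor for lipoprotein remnants, stood at 0.48 with DCAC and 0.29 with DCAA (limma adjusted p = 0.80 and 0.452), Scarb1, the HDL receptor, at 0.41 and 0.28 (0.919 and 0.458), and Slc27a2, a fatty acid transporter, at 0.395 and 0.39 (0.967 and 0.372).

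Angptl4 is a known target of the fatty acid receptor PPARA, and 22 of 27 listed PPARA and related genes were measured. Their medians were 0.04 with DCAC and 0.03 with DCAA. At an unadjusted p under 0.05, 1 was higher and 3 lower with DCAC, and 6 were higher and 5 lower with DCAA. Ppara itself read 4895, 5115 and 9414 on DCAC arrays and 10835, 8778 and 9338.5 on DCAA arrays, against 5184 and 4417 on corn oil arrays. The arrays with high Ppara, DCAC 3 and the 3 DCAA arrays, are those with high 3'/5' ratios, and the part of that ratio was not tested. Ppara stood at 0.37 with DCAC and 1.01 with DCAA (limma adjusted p = 0.978 and 0.165). Cyp4a14, a fatty acid hydroxylase and PPARA target, read 1179, 354.5 and 1380.5 on DCAC arrays and 411, 406 and 417 on DCAA arrays, against 1331 and 1808 on corn oil arrays. Its log2 difference had the opposite sign to that of Angptl4, at -0.90 with DCAC and -1.91 with DCAA (limma adjusted p = 0.967 and 0.163). DCAC 3 lay between the corn oil arrays. Listed genes went both ways. Cpt1a (0.54 with DCAC and 0.48 with DCAA), Fgf21 (1.02 and 1.64) and Slc25a20 (0.47 and 0.59) had the sign of Angptl4. Pdk4 (-0.95 and -0.98), Ehhadh (-0.25 and -0.71) and Acaa1b (-0.29 and -0.72) had that of Cyp4a14. Ppard, a receptor of the same family, stood at -2.27 and -1.96 (limma adjusted p = 0.587 and 0.221), at low signal of 70.8 to 245 on treated arrays against 577 and 522 on corn oil arrays.

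Angptl8 is known to follow insulin and the lipogenic programme, and 25 of 27 listed insulin and lipogenic genes were measured. The list also holds genes known to be lowered by insulin, among them Igfbp1, Pck1 and G6pc. Its median and counts therefore describe no single direction of response. Their medians were -0.09 with DCAC and -0.065 with DCAA. At an unadjusted p under 0.05, 0 were higher and 4 lower with DCAC, and 3 were higher and 4 lower with DCAA. Igfbp1 was 1 of the 3 higher with DCAA, and stood at -0.01 with DCAC and 1.01 with DCAA. Srebf1, a regulator of fatty acid synthesis, read 8081, 5900 and 6885 on DCAC arrays and 6786, 5602 and 5806 on DCAA arrays, against 14055 and 10430 on corn oil arrays. Each treated liver lay below both corn oil livers, while the compound groups overlapped each other. Over all probe sets, 23.7% with DCAC and 31.8% with DCAA did not overlap corn oil, in either direction. Again corn oil 1 was above corn oil 3. It stood at -0.81 with DCAC and -1.0025 with DCAA (limma adjusted p = 0.344 and 0.085). Fasn, fatty acid synthase, stood at -0.90 and -0.74 (limma adjusted p = 0.919 and 0.386), and for it DCAA 1, at 12265, lay above corn oil 3, at 10758. Pnpla3 belongs to this list as well.

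Glucocorticoids and low oxygen are also known to induce Angptl4. Of 21 genes known to answer to either, 20 were measured, with medians of -0.21 with DCAC and -0.07 with DCAA. At an unadjusted p under 0.05, 0 were higher and 3 lower with DCAC, and 4 were higher and 3 lower with DCAA. Sgk1, a kinase induced by glucocorticoids, stood at -1.66 with DCAC and -1.61 with DCAA (limma adjusted p = 0.587 and 0.193), with corn oil livers at 825 and 2960.5. Cdkn1a, a cell cycle inhibitor, stood at -1.95 and -1.10 (limma adjusted p = 0.364 and 0.336). Dusp1, a MAP kinase phosphatase, stood at -0.77 with DCAC and 0.76 with DCAA (limma adjusted p = 0.56 and 0.186). Like Angptl4 it was lower with DCAC than with DCAA, and it was the 1 listed gene called between the compounds. Genes of this list went both ways, with 7 above 0 and 13 below with DCAC, and 10 and 10 with DCAA. Zbtb16 (0.78 with DCAC and 1.42 with DCAA), Tsc22d3 (0.13 and 0.65) and Tdo2 (0.27 and 0.40) had the sign of Angptl4. Fkbp5 (-0.14 and -0.57) and Egln3 (-0.36 and -0.75) had the opposite sign.

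**Figure D4:**
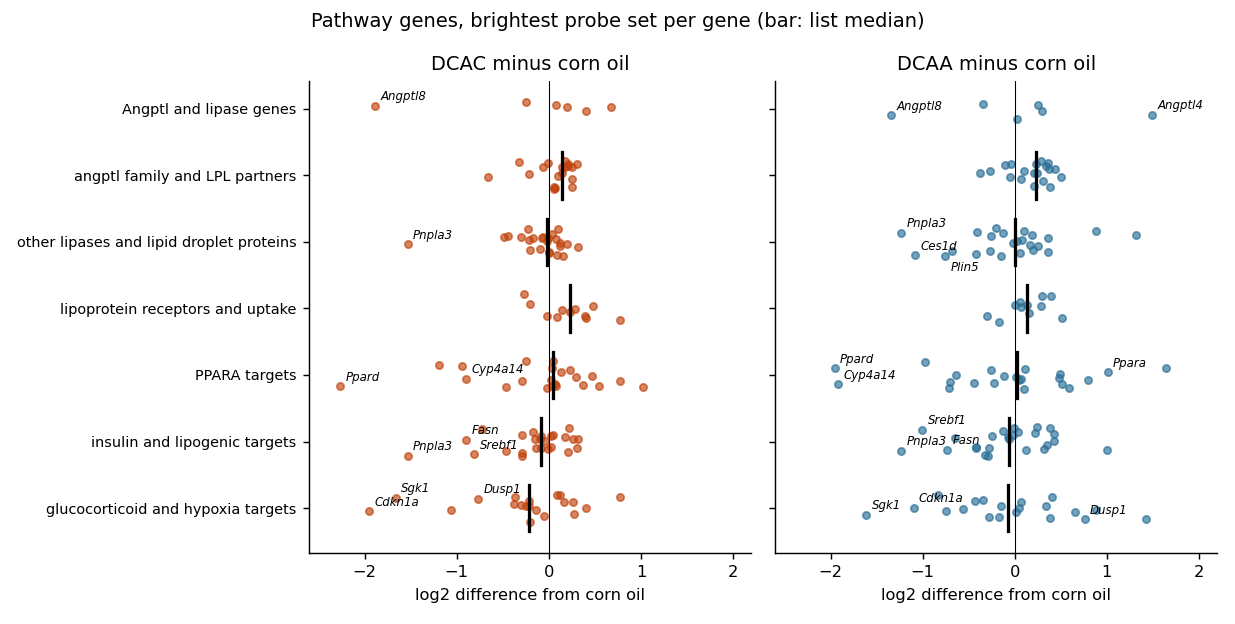
Log2 differences from corn oil for the 6 measured members (top row) and the genes of the 6 pathway lists, 1 point per gene by its brightest probe set, with a bar at each list median and no bar for the members. List medians lie between -0.21 and 0.23 with DCAC and between -0.07 and 0.23 with DCAA. Angptl8 (-1.89 and -1.35) lies near the low end of the points. Ppard (-2.27) and Cdkn1a (-1.95) lie lower with DCAC, and Ppard (-1.96), Cyp4a14 (-1.91) and Sgk1 (-1.61) lie lower with DCAA.

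Genes whose pattern over the 8 arrays was most like that of Angptl4 were sought among 11692 other genes by Pearson's r of log2 signal, as a description in which all points share the arrays and their groups. The 5 highest were Tbl1xr1 (r = 0.98), Zpbp2 (0.98), Faf2 (0.97), Olfm1 (0.96) and Rims4 (0.95). Tbl1xr1, which encodes a subunit of nuclear receptor corepressor complexes, read 1606, 1761 and 1667 on DCAC arrays and 2015, 2008 and 1993 on DCAA arrays, against 1425 and 1464 on corn oil arrays, so it followed the same 3 steps over a smaller range. Its log2 differences were 0.22 with DCAC and 0.47 with DCAA. Faf2 likewise changed over a small range, at 0.12 and 0.32. Zpbp2, Olfm1 and Rims4 were dim, at 362 or less on the 8 arrays. These 5 genes were picked by r with Angptl4 over the same arrays, so a likeness in steps follows largely from the choice.

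For Angptl8 the 5 genes were Ptpn9 (r = 0.99), Itfg2 (0.97), Ccdc149 (0.97), Chka (0.96) and Rhpn2 (0.96). Chka, which encodes choline kinase alpha of phosphatidylcholine synthesis, read 1060, 1427 and 787 on DCAC arrays and 1146, 1583.5 and 1764 on DCAA arrays, against 3377 and 2189 on corn oil arrays. Its log2 differences were -1.36 with DCAC and -0.88 with DCAA. Ptpn9, a tyrosine phosphatase, stood at -0.59 and -0.43. All 5 were, like Angptl8, highest on corn oil 1 and next on corn oil 3. They were picked by r with Angptl8 over these same arrays, so that order follows largely from the choice.

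**Figure D5:**
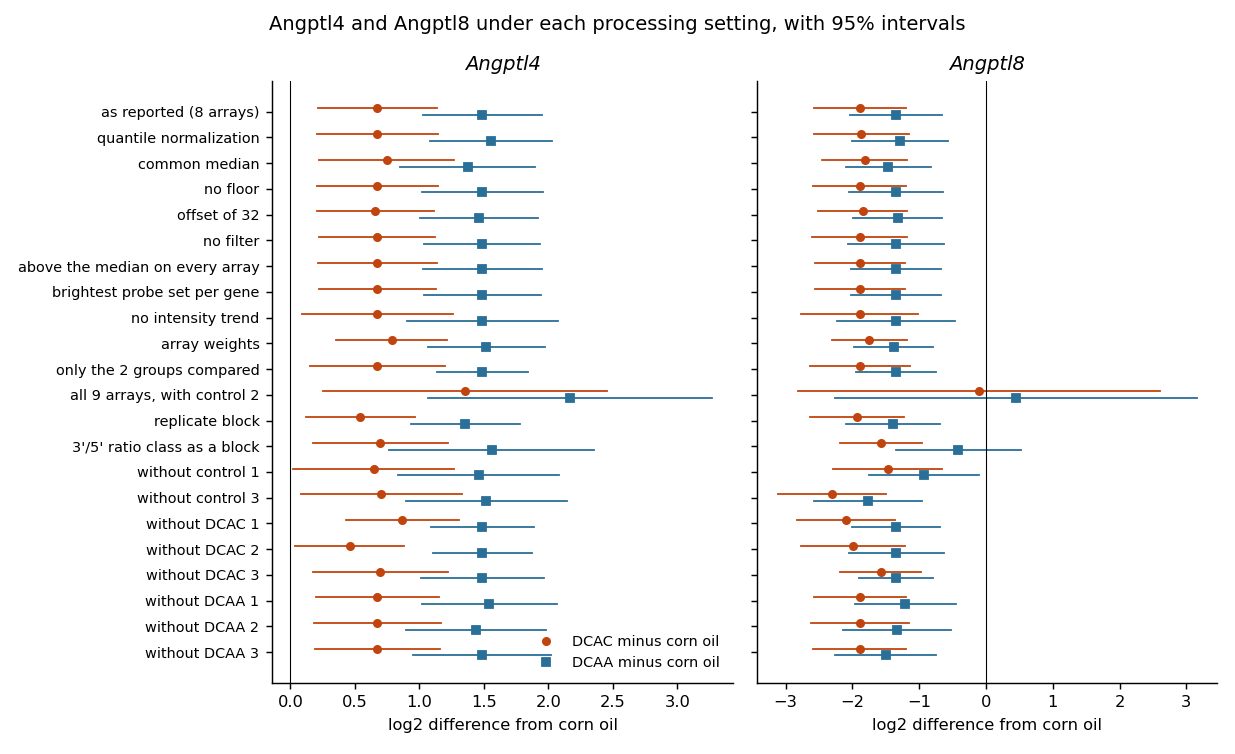
Log2 differences of Angptl4 and Angptl8 from corn oil with 95% intervals, as reported and under 21 alternative settings, for DCAC (circles) and DCAA (squares). The Angptl4 intervals lie above 0 throughout, while those of Angptl8 include 0 with all 9 arrays for both compounds and, for DCAA, in the fit blocked by ratio class.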

How the data were processed

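RNA from 1 liver per mouse was hybridised to Affymetrix arrays. The authors deposited a linear signal intensity for each probe set, made with GCOS per the submitters' processing notes. Leaving out the extreme 2% of probe sets at each end, every array averages 500. After removal of 64 control probe sets, 34945 had 1 symbol, 932 several and 9160 none. The 25th percentile of an array served as its floor before log2 was taken, and a probe set was kept if at least 3 of the 8 arrays showed it above their median. A single limma model (version 3.58.1, R 4.3.3, eBayes with intensity trend, two-sided) held all 3 groups, with Benjamini-Hochberg adjustment over 24531 probe sets. The fit was tested on simulated data. The members, lists and tests were chosen with earlier results of these data known.

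Named genes are all members, for each list the genes called against corn oil or otherwise the 3 with the smallest p, and for Angptl4 and Angptl8 the 5 genes with the highest r, leaving out predicted and unnamed genes. Some further genes of the PPARA, insulin and glucocorticoid lists are named to show both signs or the mix within a list. The brightest kept probe set stands for a gene. Alternatives were other normalization, floors, filters, moderation and weights, blocks for replicate number and for 3'/5' ratio class, all 9 arrays, and leaving out each array. A fit without 1 corn oil array assumes that the other varies like the treated groups. No 2 of the 9 arrays were identical.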

Additional observations from a re-analysis of the deposited data

Results flagged for a closer look

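Dusp1 differed between the compounds by -1.53 in log2 (DCAC minus DCAA, interval -1.91 to -1.15, limma adjusted p = 0.0269), with 1588 ± 223 with DCAC (SD, n = 3) and 4600 ± 748 with DCAA (SD, n = 3). Among the genes named here it was the 1 whose effects were found to differ by a test of the difference itself.

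Signals on the library labelled control 2, which is in no comparison, lay above those of all other 8 arrays for 3 member probe sets. They were 15822.1 for the brighter probe set of Lpl, 1607.8 for the dimmer one, and 2296.3 for Pnpla2, the last only just above the highest of the others, 2289.5.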

How the results depend on the processing

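The 21 alternatives moved several counts by over 1.5 times, and the cause was not tested. The counts of called probe sets were 8 with DCAC, 20 with DCAA and 1 between the compounds. With a common median they were 12, 9 and 0, without a filter 1, 4 and 0, without an intensity trend 0, 0 and 0, and with array weights 30, 141 and 1. With only the 2 groups compared they were 8, 13 and 2, with all 9 arrays 0, 0 and 0, and blocked by ratio class 2, 0 and 3. Where they were 0, 1131, 2713 and 2181 had an unadjusted p under 0.05 without the trend, 1336, 3025 and 1446 with all 9 arrays, and 1491 with DCAA under the ratio class. Leaving out 1 array gave 2 (without DCAC 3) to 14 (without DCAA 1) with DCAC, 3 (without DCAA 3) to 87 (without DCAA 1) with DCAA, and 0 to 2 between the compounds. Member calls with DCAA were 1 as reported, 0 with a common median, without a filter, without the trend, with all 9 arrays or with the ratio class, 2 with array weights (Angptl4 and Angptl8), and 0 to 1 leaving out an array. With DCAC they were 0, and 1 with array weights (Angptl8). Pathway genes called with DCAA were 0, then 3 with array weights (Srebf1, Ces1d and Ppara), 1 with only the 2 groups compared (Cyp4a14), and 0 to 4 leaving out an array, the 4 without DCAA 1. Between the compounds Dusp1 was the 1 called, and 0 were called with a common median, without a filter, without the trend, with all 9 arrays or with the ratio class, and 0 to 1 leaving out an array.

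Angptl4 stood at 1.35 with DCAC and 2.17 with DCAA with all 9 arrays, and leaving out an array gave 0.46 to 0.87 and 1.44 to 1.54. Angptl8 stood at -0.10 with DCAC and 0.44 with DCAA with all 9 arrays, the second with its sign turned, at -0.41 with DCAA and -1.16 between the compounds under the ratio class, and leaving out an array gave -2.31 to -1.47 with DCAC and -1.76 to -0.93 with DCAA. Between the compounds those ranges were -1.03 to -0.62 for Angptl4 and -0.75 to -0.23 for Angptl8. Of the 12 differences of Angptl6, Lpl, Apoa5 and Pnpla2, 4 moved by more than the spread between mice with a common median, 6 with all 9 arrays and 8 blocked by ratio class. Their signs turned for 2, 5 and 6 of the 12 under those settings, for 2 with quantile normalization, for 2 with array weights, and for up to 3 when an array was left out. A common median shifted the median of all probe sets with DCAA to -0.12, from -0.0081 as reported, and under it Angptl4 stood at 1.37 and Angptl8 at -1.46 with DCAA, not corrected for the shift. With replicate number as a block (replicate block) 7, 17 and 1 probe sets were called, and Angptl4 stood at 0.54 with DCAC and 1.36 with DCAA. Deviations of same-numbered arrays from their group means correlated between -0.0408 and 0.0275 over 7 pairs, against -0.0664 to 0.0736 over 14 other pairs. Deviations of the 2 corn oil arrays mirror each other, so these pairs are not separate observations and cannot settle whether the numbers pair mice. Replicate numbers are not stated to pair mice, and were not read as pairs.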

Other observations

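Lpl was the member with the least even signal within groups, and the genes most like it over the 8 arrays were sought after its values were seen. The 5 highest by Pearson's r of log2 signal were Rnf220 (r = 0.98), Ankrd16 (0.98), Rtel1 (0.97), Dcaf1 (0.95) and Acin1 (0.95). Ankrd16 read 575, 675 and 1144 on DCAC arrays and 712, 658 and 1114 on DCAA arrays, against 752 and 649 on corn oil arrays. Ankrd16 was picked for its likeness to Lpl over these same arrays. Like Lpl it was highest on DCAC 3 and DCAA 3, the arrays with the highest 3'/5' ratios. Its log2 difference from corn oil was 0.13 with DCAC and 0.20 with DCAA.

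Markers of Kupffer cells and macrophages, cells that also make Lpl, had a summed signal over 8 genes of 9026 to 14038 on DCAC arrays and 11771 to 12924 on DCAA arrays, against 8393 and 30569 on corn oil arrays. The corn oil liver with the high sum, corn oil 3, read 1327 on the brighter Lpl probe set and 430 on the dimmer one, and corn oil 1 read 1338 and 284.5.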
